A study of Rattus norvegicus with 12 samples.

Results

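The 40 genes described here encode the machinery that makes ribosomes: RNA polymerase I with its factors, and the nucleolar proteins that modify, cleave and fold ribosomal RNA and assemble the subunits. They were chosen by name, as the entries of the deposited count table whose gene name is on a list of 40 symbols, and all 40 were present among its 28727 named entries. The choice was made with earlier results of these data known. Of the 40, 39 passed edgeR's filter on low counts, which kept 14669 genes, and the other, Nhp2, is described with its own counts.

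The study put adenovirus into INS-1 832/13 cells, an insulin-secreting line derived from the rat insulinoma line INS-1, and sequenced bulk RNA from 12 libraries in 4 groups of 3 at 48 h. The 48 h is the culture time given for these data, while the paper's general adenovirus methods give longer times to harvest. The GFP 2 mM group received a GFP virus and 2 mM glucose, and the GFP 11 mM group the same virus and 11 mM glucose. The ChREBPβ 2 mM and ChREBPβ 11 mM groups received a virus for mCherry-tagged mouse ChREBPβ, the short and active isoform of a transcription factor that responds to glucose, with the same pair of glucose concentrations. The libraries of a group carry the letters a, b and c, and the labels do not say what the letters stand for, while the paper describes averages of these data as coming from 3 independent experiments. All groups share 1 tumour-derived cell line and an adenoviral infection, and there was no uninfected group. The p-values therefore measure the spread between these libraries of 1 line and not between lines or animals.

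Ribosomes are made in the nucleolus, where RNA polymerase I transcribes the ribosomal DNA into a long precursor. Small nucleolar ribonucleoproteins (snoRNPs) guide the modification of that precursor, the small subunit processome cleaves and folds the part that becomes the 40S subunit, and further factors mature the 60S subunit. Genes for these proteins are classic targets of the transcription factor Myc, which binds E-box sequences, and a β cell that enters growth raises its capacity to make protein.

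Total counts on named genes ran from 25754488 to 32938546 in the GFP 2 mM libraries and from 36219167 to 46654823 in the GFP 11 mM libraries. In the ChREBPβ 2 mM libraries they ran from 28595982 to 57726412, and in the ChREBPβ 11 mM libraries from 57088794 to 60531215. By median total the deepest groups were those with ChREBPβ, although library a of ChREBPβ 2 mM, at 28595982, was below every GFP 11 mM library. Every level below is therefore given in CPM, a gene's counts relative to the total of its library on the usual scale for sequencing. The totals were first adjusted by the trimmed mean of M-values (TMM), which takes most genes as unchanged, with factors of 0.958 to 1.057. The RNA was amplified before sequencing, so reads are not independent molecules, and the floors given for genes with few reads account for counting error alone. Within a group, each pair of libraries differed by more than counting error, by a chi-square statistic of 3.13 to 17.5 per degree of freedom.

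All tests are contrasts of 1 edgeR quasi-likelihood fit over all 12 libraries, and a gene is said to be higher or lower in a comparison when its p, adjusted by Benjamini and Hochberg over all 14669 genes, was under 0.05 and its change at least 1.2-fold (0.263 on the log2 scale).

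The β-cell label was checked on 10 markers, all of which passed the filter, with Chga the most abundant at a mean of 7840 CPM. Their summed level was 20800, 22100 and 23800 CPM in the GFP 2 mM libraries and 19000, 17100 and 18800 CPM in the GFP 11 mM libraries. It was 11800, 12200 and 12000 CPM in the ChREBPβ 2 mM libraries and 11300, 11800 and 11700 CPM in the ChREBPβ 11 mM libraries. The cells therefore carried β-cell RNA in every library, and the sum was lower in each ChREBPβ library than in any GFP library. At 2 mM, 8 of the 10 were lower with ChREBPβ, against 23.2% of all genes tested, and 1, the glucose transporter gene Slc2a2, was higher, against 21.0%. At 11 mM 7 were lower by edgeR and 6 by DESeq2, against 19.1% of all genes by edgeR, and 1 was higher, against 14.3%. In bulk RNA, fewer cells of a type and less RNA per cell cannot be told apart. Of 4 other islet hormones, 2 passed the filter, Gcg led at a mean of 1050 CPM and the list's sum fell from between 1590 and 1720 CPM in the 6 GFP libraries to between 431 and 503 CPM in the 6 ChREBPβ libraries, and Sst was at or under the floor of 3 counts.

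Markers of other cells were few. Of 5 acinar markers, 4 were in the table and 0 passed the filter, with Cela1 the most abundant at 0.0181 CPM, Prss1 at 0 in every library and a sum of at most 0.102 CPM in a library. Of 4 ductal markers 2 passed, Krt7 led at 135 CPM, Krt19 and Cftr were at or under the floor, and the sum ran from 104 to 140 CPM in the GFP libraries and from 151 to 171 CPM in the ChREBPβ libraries. Sox9, also on the ductal list, was at 0.588, 0.933 and 0.994 CPM in the GFP 2 mM libraries and at 8.23, 8.06 and 8.27 CPM in the ChREBPβ 2 mM libraries. Fibroblast markers, of which 1 of 5 passed, were led by Pdgfra at 5.09 CPM, with Col3a1 and Dcn at or under the floor and a sum of 4.08 to 8.81 CPM in the GFP and 3.39 to 4.58 CPM in the ChREBPβ libraries. Endothelial markers, of which 1 of 4 passed, were led by Kdr at 1.06 CPM and summed to 0.695 to 1.86 CPM. Leukocyte markers, of which 1 of 5 passed, were led by Cd68 at 0.544 CPM, had Ptprc at 0 in every library, and summed to 0.402 to 1.4 CPM. In tests at 2 mM, Sox9 and Cd68 were higher with ChREBPβ, Pdgfra and Kdr were lower, and at 11 mM Sox9 and Krt7 were higher and Kdr lower. The part of these lists in the results on ribosome biogenesis was not tested.

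The virus label was looked up in the table as well. Mlxipl, the rat gene for ChREBP, was at 240.3, 252 and 277 CPM in the GFP 2 mM libraries and 203, 212 and 199 CPM in the ChREBPβ 2 mM libraries. It was thus lower, not higher, with the ChREBPβ virus at 2 mM, with a log2 difference of -0.33 (adjusted p 2.03e-05). The GFP 11 mM libraries, at 202, 212 and 207.5 CPM, were also below each GFP 2 mM library. The virus carries a mouse sequence and the counts are on a rat genome, so what part of it the Mlxipl entry counts is not stated. The paper shows Western blots of INS-1 cells given ChREBPβ adenovirus, which are not of these libraries. An entry named ChREBPb was at 73.2, 77.95 and 82.2 CPM in the GFP 2 mM and 90.7, 89.7 and 90.1 CPM in the ChREBPβ 2 mM libraries, with log2 differences of 0.21 at 2 mM and 0.37 at 11 mM. The sequence behind that entry is not stated, and both entries were looked up after their values were seen. The groups are therefore named by their labels.

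Across the 40 genes, the share of all counts rose from group to group. It was 0.466% ± 0.0043 (SD, n = 3) in GFP 2 mM, 0.613% ± 0.011 in GFP 11 mM, 0.655% ± 0.012 in ChREBPβ 2 mM and 0.695% ± 0.013 in ChREBPβ 11 mM. The median log2 level of the 39 tested members, measured from the GFP 2 mM mean of each, lay between 0.39 and 0.44 in the GFP 11 mM libraries. It lay between 0.47 and 0.49 in the ChREBPβ 2 mM libraries and between 0.56 and 0.62 in the ChREBPβ 11 mM libraries. No library of a group reached into the next, and over all 14669 genes the same median stayed between -0.02 and 0.00 in every library. For 31 of the 39, the group means followed that order, GFP 2 mM lowest and ChREBPβ 11 mM highest. How many of all genes followed it was not counted. Within a group, the SD of a member's log2 level over its 3 libraries had a median of 0.0509 and ran from 0.00708 to 0.241.

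**Figure D1:**
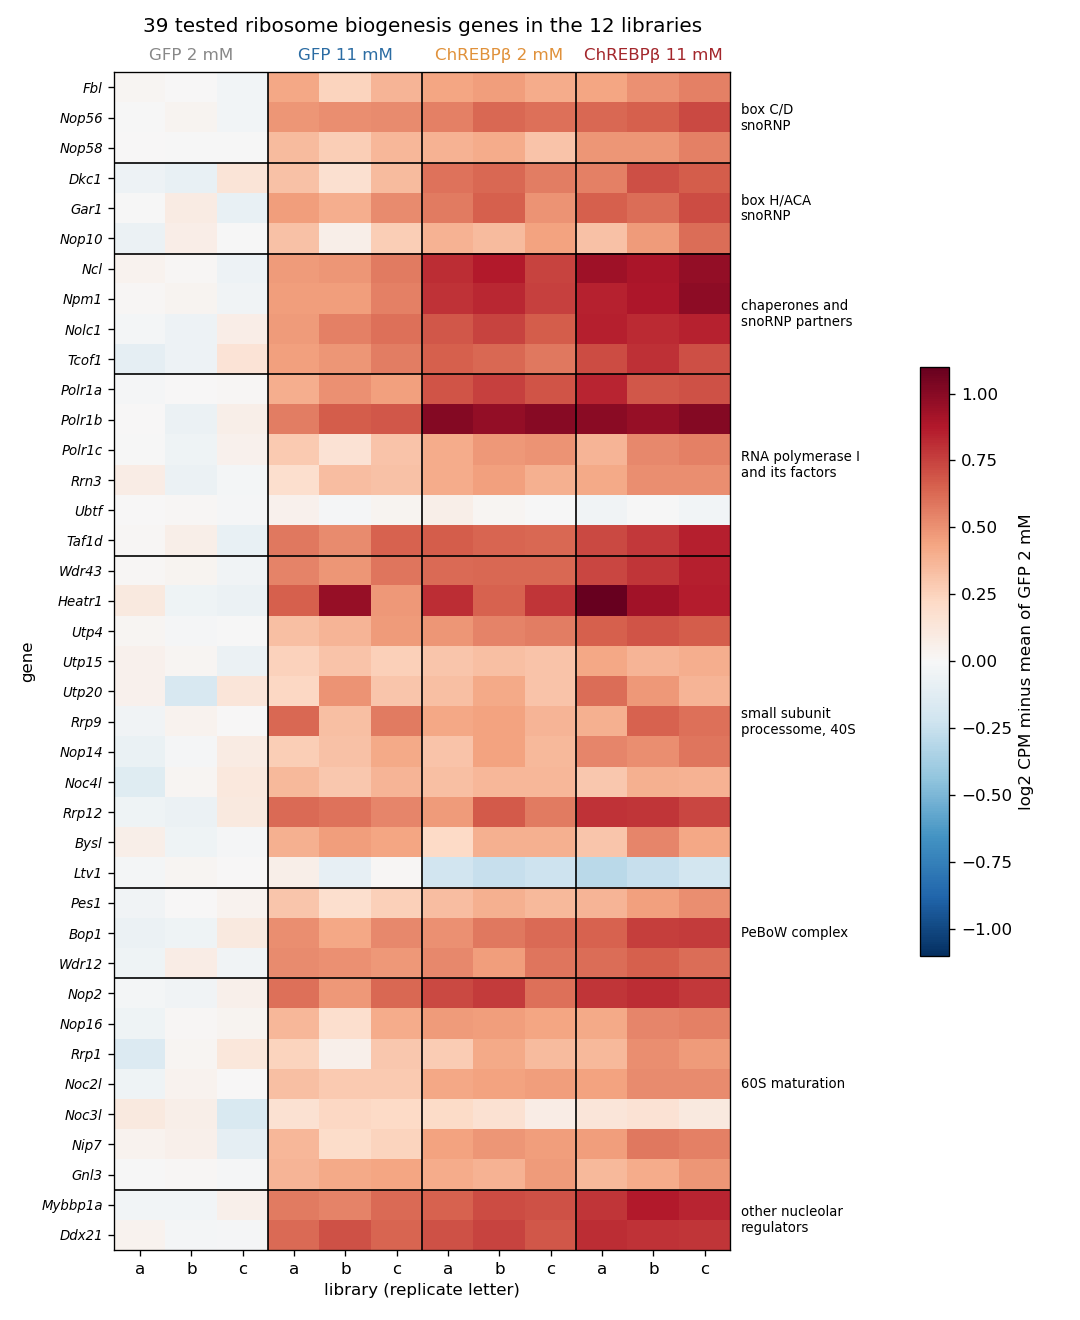
Log2 level of the 39 tested members in each of the 12 libraries, measured from the gene's mean in the GFP 2 mM libraries, with genes in order of role. By group means, most members are lowest in the GFP 2 mM libraries and highest in the ChREBPβ 11 mM libraries. Ubtf, Ltv1, Polr1b, Gnl3, Noc3l and Bysl do not follow.

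The first question is what ChREBPβ did in low glucose. At 2 mM, 36 of the 39 members were higher with ChREBPβ, against 21.0% of all genes tested, and 0 were lower, against 23.2% of all genes. For the count of 0 in edgeR, 1 member was lower at an unadjusted p under 0.05, and DESeq2 also gave 0. The median log2 difference of the members was 0.465 with a range of -0.23 to 0.99, where the median of all genes was -0.02. In 36 members every ChREBPβ library was above every GFP library, which held for 31.2% of all genes. Scaled to library totals instead, all genes split into 2196 higher and 4421 lower in place of 3075 and 3401, and 31 members were higher and 1, Ltv1, lower.

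At 11 mM the same question gave a smaller set. There 7 of the 39 were higher with ChREBPβ, against 14.3% of all genes, and 0 were lower, against 19.1%. That share, 17.9%, was near the background, so this edgeR count with the 1.2-fold minimum is not a result about the members. By edgeR 1 member was lower at an unadjusted p under 0.05. DESeq2 gave 13 members higher and 0 lower, where it gave 2251 higher and 2591 lower among all 14669 genes. The median log2 difference was 0.20, with all genes at -0.02. Without the minimum of 1.2-fold, 29 members were higher at an adjusted p under 0.05, against 23.6% of all genes, and in 30 members all ChREBPβ libraries were above all GFP libraries, against 26.4%. The count of 7 rose to 13 without library c of GFP 11 mM, and to 13 without library a of ChREBPβ 11 mM. In those fits 2109 of 14847 and 2160 of 14848 genes were higher. Scaled to library totals, all genes split into 1532 higher and 3698 lower in place of 2102 and 2802, and the members into 4 higher and 1 lower.

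Glucose was then compared within each virus. With GFP, 32 of the 39 members were higher at 11 than at 2 mM, against 10.2% of all genes, and 0 were lower, against 10.0%, with 0 lower at an unadjusted p under 0.05 in edgeR and 0 by DESeq2. The median log2 difference of the members was 0.41, where all genes had 0.00. Of the 10 β-cell markers, 6 were lower in the same comparison, against 10.0% of all genes, and 0 were higher. Krt7 and Pdgfra were lower as well, with log2 differences of -0.31 and -0.80. The part of these markers in the members' values was not tested. With ChREBPβ, 0 members were higher at 11 mM, against 0.988% of all genes, and 0 were lower, against 2.88%. By edgeR 13 were higher and 0 lower there at an unadjusted p under 0.05, against 1364 and 1680 of all 14669 genes. At an adjusted p under 0.05 with no minimum fold 6 members were higher, all by under 1.2-fold, against 399 of all genes. DESeq2 gave 0 in each direction. The median was 0.09 with ChREBPβ, and the median of all genes was again 0.00.

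The difference between these effects was tested as an interaction, the log2 ChREBPβ effect at 11 mM minus that at 2 mM, which is the same number as the glucose effect with ChREBPβ minus that with GFP. In the main fit it was below zero for all 39 members tested, while 7136 of all 14669 genes were above zero. The members had a median of -0.33, where all genes had a median of -0.01. With upper quartile factors the Ltv1 effect was -0.29 at 2 mM and -0.28 at 11 mM, so its interaction was not below zero there. In 22 members the interaction was significantly lower, against 4.74% of all genes, and in 0 it was higher, against 1.56%. At an unadjusted p under 0.05 edgeR had 34 lower and 0 higher, and DESeq2 called 21 lower and 0 higher. Upper quartile scaling gave 310 genes above and 569 below among all genes, in place of 229 and 696. The interaction tests each member alone, and all 4 groups enter it.

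The libraries with ChREBPβ in low glucose were also set against those with GFP in high glucose. In that comparison 5 members were higher with ChREBPβ (Dkc1, Ncl, Npm1, Polr1a and Polr1b), against 12.2% of all genes, and 0 were lower, against 14.8%. The member share is near the background and is not a result about the list. By edgeR 1 member was lower at an unadjusted p under 0.05, and DESeq2 gave 5 higher and 0 lower. In 18 members the libraries stood apart with ChREBPβ higher, against 26.0% of all genes. The median log2 difference was 0.09, and with library totals it was 0.03 with 1 member higher and 1 lower, while all genes split into 1418 and 2882 in place of 1787 and 2168. Between the outermost groups, ChREBPβ 11 mM and GFP 2 mM, 36 members were higher, against 23.7% of all genes, with a median of 0.55, and with library totals all genes split into 2531 and 5038 in place of 3474 and 3933.

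The comparisons share libraries, so their values are given side by side and not as support for each other. Of the members, 32 were higher both with ChREBPβ at 2 mM and with glucose under GFP, which have the GFP 2 mM libraries in common. Of all genes, 21.0% and 10.2% were higher in these comparisons. The share of all genes higher in both was not counted, so the 32 has no background value. Nop10, Polr1c, Pes1 and Rrp1 were higher with ChREBPβ at 2 mM but did not reach both conditions for glucose under GFP. Noc3l, Ubtf and Ltv1 were in neither set.

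**Figure D2:**
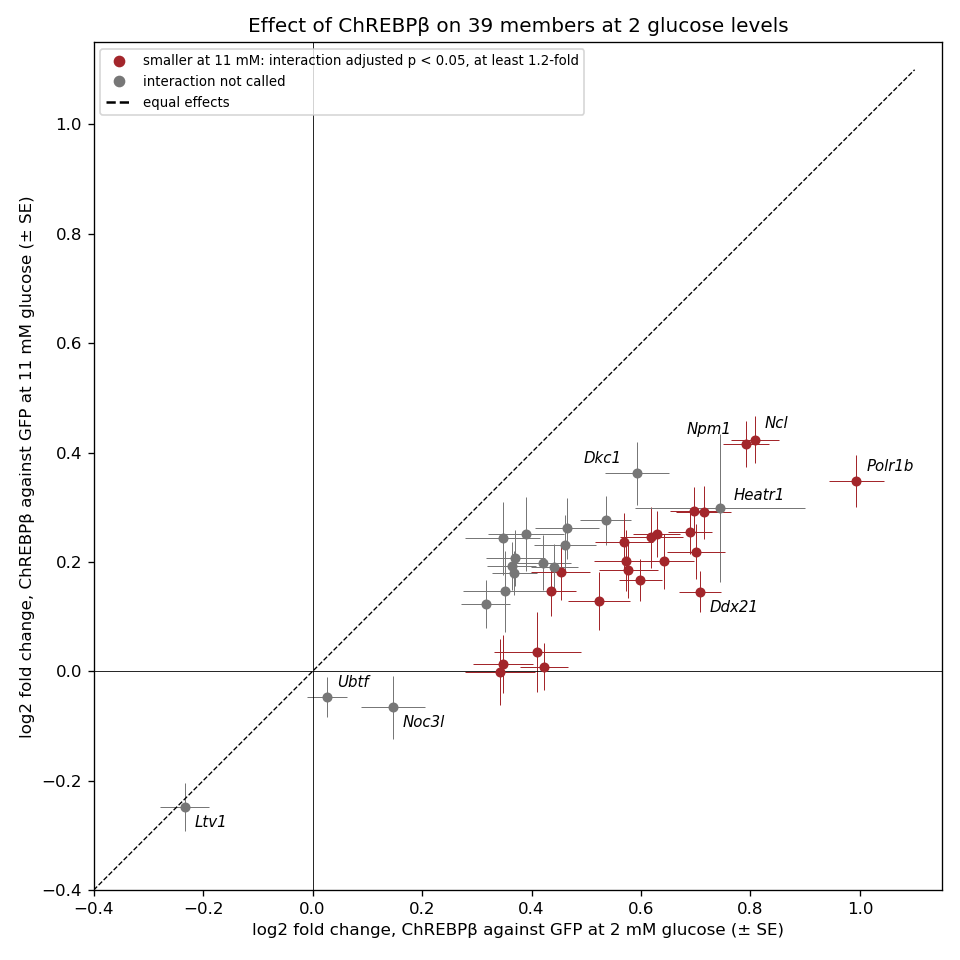
Log2 difference of ChREBPβ and GFP for each of the 39 tested members at 2 mM glucose (x axis) and at 11 mM (y axis), with the line of equal effects. All points lie below the line, and the medians are 0.465 at 2 mM and 0.20 at 11 mM.

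Since members moved together, their promoters were searched for the E-box CACGTG, the core that Myc and its partners are known to bind. Promoters of 300 bases, 250 before and 50 after the start site, came from RefSeq on the GRCr8 build and were matched by symbol for 38 of the 40, all but Wdr43 and Bop1. CACGTG reads the same on both strands and was in 13 of the 38 (34.2%), where 2148 of 33469 promoters in the table (6.42%) held it. Those 33469 were not limited to the genes that passed the filter, so the share is over a set unlike that of the tests. The carbohydrate response element (ChoRE) motif, which ChREBP is known for and which overlaps E-box sequences, was in 0 of the 38 and in 25 of all 33469 (0.0747%). Among other lists, CACGTG was in 16 of 42 promoters of further small subunit genes (38.1%), in 8 of 40 of further 60S genes (20%), in 1 of 8 of further RNA polymerase I genes (12.5%) and in 5 of 63 of cytosolic ribosomal protein genes (7.94%). A match describes the letters of this window and is not a binding site or a cause, and the absence of a match says nothing of a factor.

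The promoters of 4 members are shown, the 3 with the motif and the 1 without it that rose most with ChREBPβ at 2 mM, so that promoters with and without a match can be set side by side among members with large changes. They lie at chr4:159618716-159619015 (Nop2), chr10:57555208-57555507 (Mybbp1a), chrX:157751401-157751700 (Dkc1) and chr3:136786880-136787179 (Polr1b), all on the plus strand of GRCr8, and are written 5′ to 3′ with CACGTG in capitals.
Nop2: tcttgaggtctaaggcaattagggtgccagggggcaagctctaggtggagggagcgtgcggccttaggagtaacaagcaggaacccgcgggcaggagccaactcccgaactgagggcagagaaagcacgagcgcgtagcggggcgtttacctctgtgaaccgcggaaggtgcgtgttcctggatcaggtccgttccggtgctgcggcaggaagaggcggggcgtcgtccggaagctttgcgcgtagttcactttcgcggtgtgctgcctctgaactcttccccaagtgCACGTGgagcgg
Mybbp1a: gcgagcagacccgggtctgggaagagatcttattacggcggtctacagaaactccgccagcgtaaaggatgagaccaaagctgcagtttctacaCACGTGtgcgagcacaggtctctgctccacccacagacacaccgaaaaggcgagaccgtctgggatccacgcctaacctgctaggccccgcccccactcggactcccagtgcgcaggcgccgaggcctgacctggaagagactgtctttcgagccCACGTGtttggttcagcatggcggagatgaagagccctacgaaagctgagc
Dkc1: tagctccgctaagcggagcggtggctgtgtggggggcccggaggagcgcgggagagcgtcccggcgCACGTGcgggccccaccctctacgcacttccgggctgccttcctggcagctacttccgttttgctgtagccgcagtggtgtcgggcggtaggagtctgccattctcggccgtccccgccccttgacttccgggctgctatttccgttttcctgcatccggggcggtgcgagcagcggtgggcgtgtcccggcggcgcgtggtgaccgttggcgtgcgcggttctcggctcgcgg
Polr1b: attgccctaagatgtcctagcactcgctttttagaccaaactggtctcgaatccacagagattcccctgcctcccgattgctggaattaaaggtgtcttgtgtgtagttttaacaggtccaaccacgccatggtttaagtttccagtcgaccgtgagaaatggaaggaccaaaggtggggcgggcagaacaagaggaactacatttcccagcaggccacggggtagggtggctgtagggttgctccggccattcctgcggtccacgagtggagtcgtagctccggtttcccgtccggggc

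The motif begins at 38 from the start site in Nop2, at -156 and -1 in Mybbp1a and at -184 in Dkc1, where negative numbers lie before the start. In all, the 13 promoters held 14 matches, from -184 to 38. Of the 13 members with the motif, 11 were higher with ChREBPβ at 2 mM with a median log2 difference of 0.42. Of 24 tested members without it, 23 were higher with a median of 0.49, where 21.0% of all genes were higher. At 11 mM the counts were 2 of 13 with a median of 0.19 and 5 of 24 with a median of 0.20. Both are near the 14.3% of all genes and are not a result about these members. For glucose under GFP the counts were 9 of 13 with a median of 0.35 and 21 of 24 with a median of 0.455, against 10.2% of all genes. The medians with the motif were thus not above those without it in these 3 comparisons, and the difference between them was not tested.

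**Figure D3:**
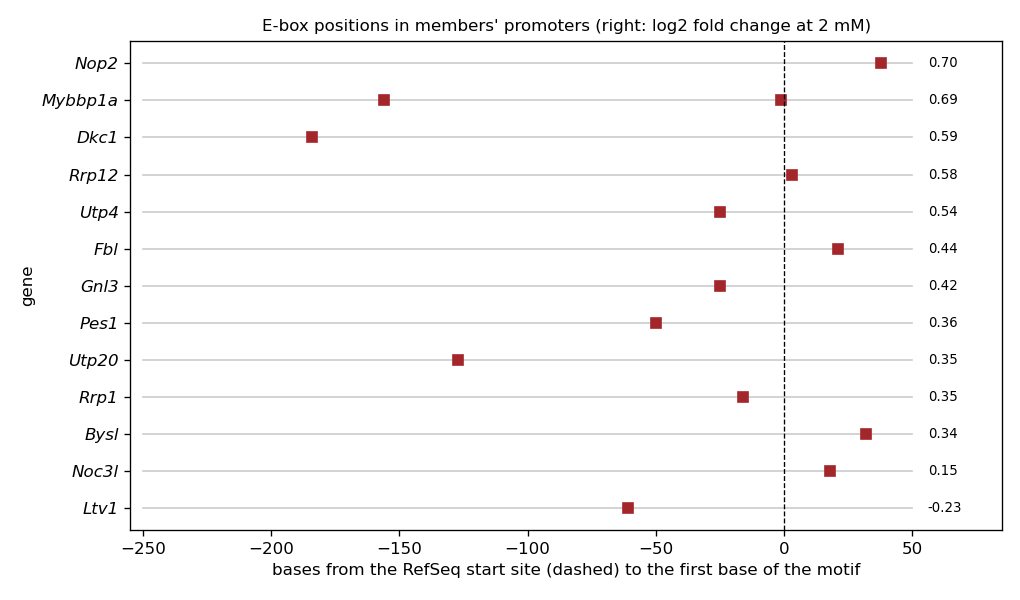
Distance in bases from the start site of each of the 14 CACGTG matches in the promoters of 13 members, by member, within the window of 250 bases before and 50 after. The matches run from -184 (Dkc1) to 38 (Nop2), and Mybbp1a has a pair of them.

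Box C/D snoRNPs, which place methyl groups on ribosomal RNA, have their shared core proteins on the list as Fbl, Nop56 and Nop58, and all 3 were higher with ChREBPβ at 2 mM, against 21.0% of all genes. Fbl, the methyltransferase itself, was at 176, 174 and 169 CPM in the GFP 2 mM and 232, 205 and 224 CPM in the GFP 11 mM libraries. It was at 233, 238 and 230 CPM in ChREBPβ 2 mM and 234, 245 and 253 CPM in ChREBPβ 11 mM. The GFP 2 mM libraries were low and stood clear of the other 9, among which neighbouring groups overlapped in part. ChREBPβ raised Fbl by 0.44 on the log2 scale at 2 mM (SE 0.0461, adjusted p 1.1e-07) and by 0.15 at 11 mM.

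Nop56, a scaffold of the same particle, was at 163, 167 and 160.4 CPM in GFP 2 mM and 228, 234 and 234 CPM in GFP 11 mM. With ChREBPβ it was at 240.2, 253 and 249 CPM at 2 mM and 253, 257 and 269.9 CPM at 11 mM. No group overlapped the next, but the only wide step was between GFP 2 mM and the rest. The log2 difference was 0.60 for ChREBPβ at 2 mM, 0.17 for ChREBPβ at 11 mM and 0.50 for glucose under GFP. The interaction was -0.43 (adjusted p 3.06e-05). Nop58, its partner scaffold, had a log2 difference of 0.37 with ChREBPβ at 2 mM.

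Box H/ACA snoRNPs convert uridine to pseudouridine, and their core is Dkc1, Gar1, Nop10 and Nhp2. Dkc1, the enzyme, was at 83.04, 81.3 and 94.9 CPM in GFP 2 mM and 108, 97.7 and 109 CPM in GFP 11 mM. It was at 130.3, 134 and 127 CPM in ChREBPβ 2 mM and 127, 141 and 137 CPM in ChREBPβ 11 mM. All 6 ChREBPβ libraries were above all 6 GFP libraries, and the ChREBPβ groups overlapped each other. The log2 difference was 0.59 (SE 0.0588, adjusted p 4.26e-08) at 2 mM and 0.36 (SE 0.0575, adjusted p 2.94e-05) at 11 mM. Under GFP, glucose raised it by 0.28 on the log2 scale, a change that fell under 1.2-fold without library a or b of GFP 2 mM (0.26 and 0.24) or without library a or c of GFP 11 mM (0.26 and 0.25). Gar1 and Nop10 rose with ChREBPβ at 2 mM by 0.57 and 0.39.

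Nhp2 had 2 reads in the 12 libraries together, 1 in library c of GFP 2 mM and 1 in library c of ChREBPβ 11 mM, so no change could be measured. A floor of 3 counts stands for 0.0496 to 0.116 CPM in these libraries. What part of the gene its entry counts is not stated.

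The nucleolar chaperones and partners of snoRNPs on the list were all 4 higher with ChREBPβ at 2 mM, against 21.0% of all genes, and 3 of the 4 also at 11 mM, against 14.3%. Ncl (nucleolin), which binds the nascent precursor, was at 486, 478 and 455 CPM in GFP 2 mM and 655, 662 and 702 CPM in GFP 11 mM. It was at 829, 865 and 791 CPM in ChREBPβ 2 mM and 905, 879 and 925 CPM in ChREBPβ 11 mM. The 4 groups formed steps with no overlap. With ChREBPβ it was higher by 0.81 (SE 0.0433, adjusted p 3.83e-12) at 2 mM and by 0.42 (SE 0.0429, adjusted p 8.58e-08) at 11 mM, and glucose under GFP raised it by 0.51, all on the log2 scale.

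Npm1 (nucleophosmin), a histone and ribosome chaperone, was at 910, 921 and 880 CPM in GFP 2 mM and 1243, 1243 and 1325 CPM in GFP 11 mM. With ChREBPβ it was at 1569, 1605 and 1520 CPM at 2 mM and 1622, 1672 and 1788 CPM at 11 mM. These groups did not overlap either. The log2 difference with ChREBPβ was 0.79 at 2 mM and 0.42 at 11 mM, and the interaction was -0.38 (SE 0.0599, adjusted p 0.000402). Genomes carry processed copies of Npm1, and how reads shared with such copies were counted is not stated, so its level is less certain than that of the other members.

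Nolc1, which escorts snoRNPs through the nucleolus, was at 301, 294 and 322 CPM in GFP 2 mM and 423, 449.5 and 465 CPM in GFP 11 mM. It was at 489.7, 509.8 and 486 CPM in ChREBPβ 2 mM and 553, 538 and 548 CPM in ChREBPβ 11 mM, and no groups overlapped. The rise with ChREBPβ was 0.70 on the log2 scale at 2 mM and 0.29 at 11 mM, the latter 0.26 and under 1.2-fold without library a of GFP 11 mM. Tcof1 (treacle), which helps RNA polymerase I transcribe, had 0.62 at 2 mM and 0.24 at 11 mM.

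Of the 6 genes of RNA polymerase I and its factors, 5 were higher with ChREBPβ at 2 mM, against 21.0% of all genes, 2 at 11 mM, against 14.3%, and 4 with glucose under GFP, against 10.2%. Polr1b, a subunit of the catalytic centre whose promoter is printed above without a match, was at 29.9, 28.4 and 31.1 CPM in GFP 2 mM and 43.9, 47.3 and 47.98 CPM in GFP 11 mM. It was at 60.1, 58.4 and 59.6 CPM in ChREBPβ 2 mM and 59.2, 57.9 and 60 CPM in ChREBPβ 11 mM. All ChREBPβ libraries were above all GFP libraries, and the ChREBPβ groups overlapped each other. ChREBPβ raised it by 0.99 at 2 mM (SE 0.0508, 1.99-fold, adjusted p 1.82e-12) and by 0.35 at 11 mM (SE 0.0477, adjusted p 5.17e-06). Glucose raised it by 0.64 under GFP and changed it by -0.01 with ChREBPβ (SE 0.0472). Its interaction, -0.65, was the lowest of the 39.

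Polr1a, the largest subunit, was at 41.4, 41.8 and 42.2 CPM in GFP 2 mM and 55.1, 59.3 and 57.1 CPM in GFP 11 mM. It was at 67.6, 70.5 and 67.6 CPM in ChREBPβ 2 mM and 74.5, 67.3 and 67.96 CPM in ChREBPβ 11 mM. Here too the ChREBPβ libraries were all above the GFP libraries, and the ChREBPβ groups overlapped. The log2 rise with ChREBPβ was 0.71 at 2 mM and 0.29 at 11 mM, and without library a of ChREBPβ 11 mM the latter was 0.24, under 1.2-fold. Against GFP 11 mM, the ChREBPβ 2 mM libraries were higher by 0.26, just at the 1.2-fold minimum, and fell under it without library a or c of GFP 11 mM (0.24 and 0.26) or library b of ChREBPβ 2 mM (0.24).

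Ubtf, the factor that bends and opens the ribosomal DNA, was the exception of this class. It was at 200.2, 201 and 198 CPM in GFP 2 mM and 206, 198 and 204 CPM in GFP 11 mM. With ChREBPβ it was at 208.5, 203.5 and 199 CPM at 2 mM and 194.4, 199 and 196 CPM at 11 mM. The groups overlapped in every comparison. Its log2 difference with ChREBPβ was 0.03 at 2 mM (SE 0.0367, adjusted p 0.561) and -0.05 at 11 mM (SE 0.0364, adjusted p 0.295). Polr1c, a subunit shared with RNA polymerase III, rose by 0.46 at 2 mM. Rrn3, which brings the polymerase to the promoter, rose by 0.42, and Taf1d, a part of the promoter selectivity factor, by 0.64.

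**Figure D4:**
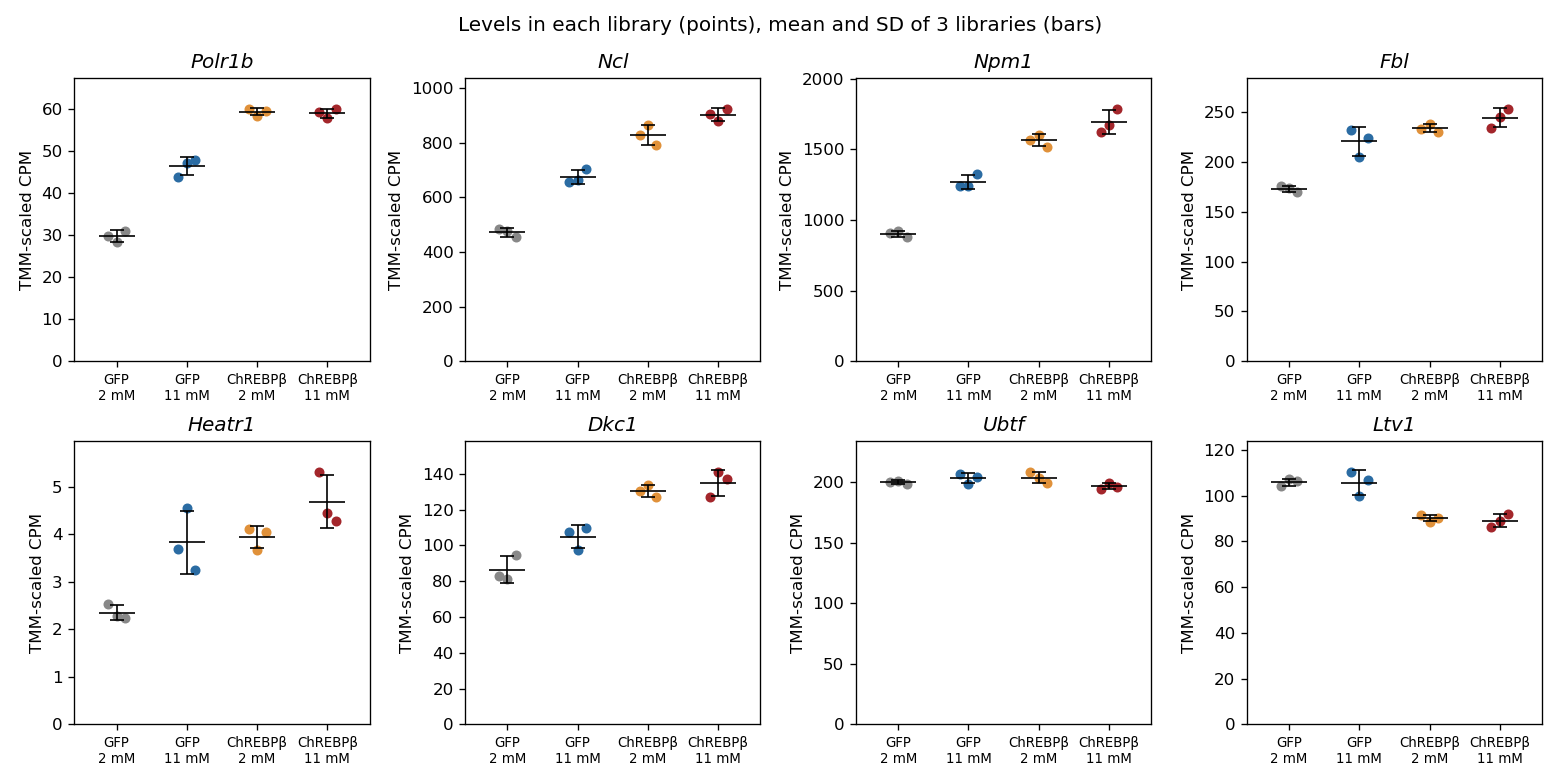
TMM-scaled CPM of 8 members in each library, with the group mean and SD (n = 3), for Polr1b, Ncl, Npm1, Fbl, Heatr1, Dkc1, Ubtf and Ltv1. Ubtf stays between 194.4 and 208.5 CPM in all 12 libraries, and Ltv1 is at 86.3 to 91.8 CPM in the ChREBPβ libraries and 99.7 to 110.4 CPM in the GFP libraries.

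The small subunit processome and 40S maturation are represented by 11 members, of which 10 were higher with ChREBPβ at 2 mM, against 21.0% of all genes, 1 at 11 mM, against 14.3%, and 10 with glucose under GFP, against 10.2%. Utp4, of the complex that first binds the precursor, was at 47.5, 46.5 and 46.6 CPM in GFP 2 mM and 58.97, 60.9 and 64.9 CPM in GFP 11 mM. It was at 65.8, 68.5 and 69.3 CPM in ChREBPβ 2 mM and 73.7, 75.6 and 74.4 CPM in ChREBPβ 11 mM, again in steps without overlap. ChREBPβ raised it by 0.54 at 2 mM (adjusted p 6.66e-09) and by 0.28 at 11 mM (adjusted p 3.84e-05), and without library a of GFP 11 mM the latter was 0.25, under 1.2-fold.

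Rrp12, which takes part in the export of both subunits, was at 68.9, 68.1 and 76.6 CPM in GFP 2 mM and 109, 107 and 103 CPM in GFP 11 mM. It was at 98.6, 114 and 106 CPM in ChREBPβ 2 mM and 123, 122 and 118 CPM in ChREBPβ 11 mM. The middle groups, GFP 11 mM and ChREBPβ 2 mM, overlapped, GFP 2 mM was below them and ChREBPβ 11 mM above. The log2 difference was 0.58 for ChREBPβ at 2 mM and 0.58 for glucose under GFP.

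Heatr1, of the same early complex as Utp4, had few reads and was at 2.54, 2.27 and 2.24 CPM in GFP 2 mM and 3.69, 4.55 and 3.26 CPM in GFP 11 mM. It was at 4.12, 3.67 and 4.05 CPM in ChREBPβ 2 mM and 5.32, 4.46 and 4.28 CPM in ChREBPβ 11 mM. The GFP 2 mM libraries were the lowest, GFP 11 mM overlapped both ChREBPβ groups, and these did not overlap each other. Its log2 difference of 0.74 at 2 mM had an SE of 0.155, wider than for the members named so far.

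Ltv1, which acts late in 40S maturation, went the other way. It was at 104, 107 and 106 CPM in GFP 2 mM and 110.4, 99.7 and 107 CPM in GFP 11 mM. With ChREBPβ it was at 91.4, 88.7 and 90.2 CPM at 2 mM and 86.3, 88.7 and 91.8 CPM at 11 mM. All 6 ChREBPβ libraries were below all 6 GFP libraries. The log2 difference was -0.23 at 2 mM (SE 0.0447, adjusted p 0.000161) and -0.25 at 11 mM (SE 0.044, adjusted p 0.000102), under the 1.2-fold minimum at both concentrations, and at 11 mM it passed the minimum without library b of GFP 11 mM (-0.29) or library c of ChREBPβ 11 mM (-0.27). It also passed at 2 and 11 mM with upper quartile factors or library totals, and its promoter was among the 13 with CACGTG.

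Among the rest of the small subunit members, the log2 difference with ChREBPβ at 2 mM was 0.63 for Wdr43 and 0.32 for Utp15, both of the early complex. It was 0.35 for Utp20 and 0.41 for Rrp9, a protein of the U3 particle. For Nop14 and Noc4l, partners in 40S assembly, it was 0.37 and 0.35, and for Bysl, which joins before export, 0.34. At 11 mM, Noc4l, Bysl and Rrp9 had differences of 0.01, -0.0006 and 0.04, with overlapping libraries.

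The PeBoW complex of Pes1, Bop1 and Wdr12, needed for the large subunit RNAs, had all 3 genes higher with ChREBPβ at 2 mM, against 21.0% of all genes, and 0 at 11 mM, against 14.3%, where edgeR gave 3 at an unadjusted p under 0.05 and DESeq2 gave 0. Bop1 was at 78.3, 79 and 88.1 CPM in GFP 2 mM and 116, 109.5 and 118 CPM in GFP 11 mM. It was at 116, 122 and 126 CPM in ChREBPβ 2 mM and 128, 139 and 139 CPM in ChREBPβ 11 mM. GFP 2 mM was lowest, ChREBPβ 11 mM highest, and the middle groups overlapped. Its log2 difference was 0.57 at 2 mM and 0.24 at 11 mM, the latter 0.28 without library a of ChREBPβ 11 mM. Pes1 and Wdr12 had 0.36 and 0.52 at 2 mM.

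Of 7 members for 60S maturation, 6 were higher with ChREBPβ at 2 mM, against 21.0% of all genes, 5 with glucose under GFP, against 10.2%, and 0 with ChREBPβ at 11 mM, against 14.3%, where edgeR gave 5 at an unadjusted p under 0.05 and DESeq2 gave 2 higher. Nop2, a methyltransferase of the large subunit RNA whose promoter is printed above, was at 55.2, 54.5 and 58.2 CPM in GFP 2 mM and 85.4, 77.95 and 86.7 CPM in GFP 11 mM. It was at 92.4, 95.4 and 85.2 CPM in ChREBPβ 2 mM and 96.6, 98.3 and 96.2 CPM in ChREBPβ 11 mM. GFP 2 mM was far below the rest, and the middle groups overlapped. The log2 difference with ChREBPβ was 0.70 at 2 mM (SE 0.0524, adjusted p 6.79e-10) and 0.22 at 11 mM (SE 0.0504, adjusted p 0.00127), and the interaction was -0.48.

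Gnl3 (nucleostemin), a GTPase that shuttles between nucleolus and nucleoplasm, was at 78.5, 79.8 and 78.3 CPM in GFP 2 mM and 102, 105 and 107 CPM in GFP 11 mM. It was at 105, 103 and 109 CPM in ChREBPβ 2 mM and 101, 104 and 110.5 CPM in ChREBPβ 11 mM. The GFP 2 mM libraries were low and the other 3 groups overlapped. ChREBPβ raised it by 0.42 on the log2 scale at 2 mM and by 0.01 at 11 mM (SE 0.0428).

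Noc3l, a 60S assembly factor, was at 64.96, 63.3 and 53.7 CPM in GFP 2 mM and 67.8, 70.6 and 70.2 CPM in GFP 11 mM. It was at 69.9, 67.8 and 63.9 CPM in ChREBPβ 2 mM and 66.5, 67.6 and 65.3 CPM in ChREBPβ 11 mM. Library c of GFP 2 mM was lowest, and at 2 mM the groups overlapped. Its log2 difference at 2 mM was 0.15 (adjusted p 0.0394), under the minimum. The remaining large subunit factors, Nop16, Rrp1, Noc2l and Nip7, had 0.45, 0.35, 0.44 and 0.46 at 2 mM.

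Mybbp1a and Ddx21 act on RNA polymerase I transcription from within the nucleolus. Mybbp1a was at 225, 225 and 238 CPM in GFP 2 mM and 341, 335 and 353 CPM in GFP 11 mM. It was at 359.9, 378 and 373 CPM in ChREBPβ 2 mM and 396, 420.2 and 411 CPM in ChREBPβ 11 mM, in steps without overlap. The log2 difference with ChREBPβ was 0.69 at 2 mM and 0.25 at 11 mM, where it passed the 1.2-fold minimum without library c of GFP 11 mM (0.28) or library a of ChREBPβ 11 mM (0.28).

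Ddx21, a helicase that links the polymerase to RNA processing, was at 160.1, 153 and 155 CPM in GFP 2 mM and 239.8, 253 and 243 CPM in GFP 11 mM. It was at 254, 260.4 and 250 CPM in ChREBPβ 2 mM and 274, 271 and 269 CPM in ChREBPβ 11 mM. GFP 2 mM was far below the other groups, of which ChREBPβ 11 mM was highest. ChREBPβ raised it by 0.71 at 2 mM and 0.15 at 11 mM, and the interaction was -0.56 (SE 0.0532, adjusted p 6.83e-07).

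Myc is given for context, as the regulator these genes are best known for. It was at 37, 38.9 and 42.05 CPM in GFP 2 mM and 87.7, 90.2 and 95.2 CPM in GFP 11 mM. It was at 114, 108 and 109 CPM in ChREBPβ 2 mM and 122, 124 and 124 CPM in ChREBPβ 11 mM. The groups stood in the same order as most members, with no overlap, and how many of all genes share that order was not counted. Its log2 difference with ChREBPβ was 1.49 at 2 mM (SE 0.0505, adjusted p 2.59e-15) and 0.44 at 11 mM (SE 0.047, adjusted p 2.02e-07), and glucose under GFP raised it by 1.21. Its part in the members' values was not tested.

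Other genes of the pathway came from lists of their own, and those named have the largest rise or fall of a list in 1 of these comparisons among those averaging 5 CPM or more. Of 92 further ribosome assembly genes tested, 52 were higher with ChREBPβ at 2 mM, against 21.0% of all genes, and 0 lower, against 23.2%, with a median log2 difference of 0.29, below the 0.465 of the members. The 0 lower stood beside 3 lower at an unadjusted p under 0.05 in edgeR and 0 lower by DESeq2. At 11 mM 7 of the 92 were higher and 1 lower, with a median of 0.11, and the 7 are a smaller share (7.61%) than the 14.3% of all genes. Among further small subunit genes 26 of 47 were higher at 2 mM, led by Rrp7a at 0.71, and 1 at 11 mM, under the 14.3% of all genes. Among further 60S genes 26 of 45 were higher at 2 mM, led by Mrto4, and 6 were higher and 1, Rrp1b at -0.32, lower at 11 mM, where the 6 are near the 14.3% of all genes. Mrto4, a large subunit factor, was at 18.4, 21.4 and 21.2 CPM in GFP 2 mM and 40.8, 40.5 and 40.2 CPM in ChREBPβ 2 mM, without overlap, a log2 difference of 0.99.

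Of 9 further RNA polymerase I genes, 5 were higher at 2 mM, against 21.0% of all genes, and 4 were higher and 1 lower at 11 mM, against 14.3% and 19.1%. Polr1e, a subunit, was highest of these at 2 mM with a log2 difference of 0.66, and Polr1d, a subunit shared with RNA polymerase III, had 0.37 at 2 mM and 0.37 at 11 mM. Taf1a, of the selectivity factor, was lower at 11 mM, with a log2 difference of -0.30. For snoRNP assembly 3 of 10 were higher at 2 mM, near the 21.0% of all genes, led by Naf1 at 0.62, and at 11 mM 0 were, against 14.3%, with 3 at an unadjusted p under 0.05 in edgeR and 1 called by DESeq2. For the RNA exosome 8 of 15 were higher at 2 mM, against 21.0%, led by Exosc6 at 0.71, and 2 at 11 mM, near the 14.3% of all genes, led by Exosc8 at 0.39. For RNase MRP and P 4 of 9 were higher at 2 mM, against 21.0%, led by Rpp30 at 0.41, and 0 at 11 mM, against 14.3%, with 3 at an unadjusted p under 0.05 in edgeR and 0 by DESeq2.

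The other polymerases give a comparison within the same libraries. For RNA polymerase III and its factors, 5 of 21 were higher at 2 mM, near the 21.0% of all genes, with a median of 0.04. There 1 was lower, Polr3g at -0.33, against 23.2% of all genes. For RNA polymerase II, 0 of 6 own subunits tested were higher or lower at 2 mM, against 21.0% and 23.2% of all genes. In edgeR 3 of the 6 had an unadjusted p under 0.05, and DESeq2 called 0. Of 4 tested subunits that polymerases share, 2 were higher at 2 mM, against 21.0% of all genes. At 11 mM 1 of the 4, Polr2e at 0.31, was higher, against 14.3% of all genes.

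Cytosolic ribosomal proteins, the cargo of the pathway, had 61 of 72 genes higher with ChREBPβ at 2 mM (median 0.40), against 21.0% of all genes, and 44 at 11 mM (median 0.29), against 14.3%. With glucose under GFP 16 were higher (median 0.21), against 10.2% of all genes. The interaction was lower in 3, with a median of -0.13, a share near the 4.74% of all genes. Rps18, with the largest rise among those at 5 CPM or more, was at 762, 817 and 800.1 CPM in GFP 2 mM and 1269, 1283 and 1326 CPM in ChREBPβ 2 mM without overlap, with log2 differences of 0.70 and 0.51 at 2 and 11 mM. Ribosomal protein genes have many near-identical copies in the genome, and how their shared reads were counted is not stated.

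**Figure D5:**
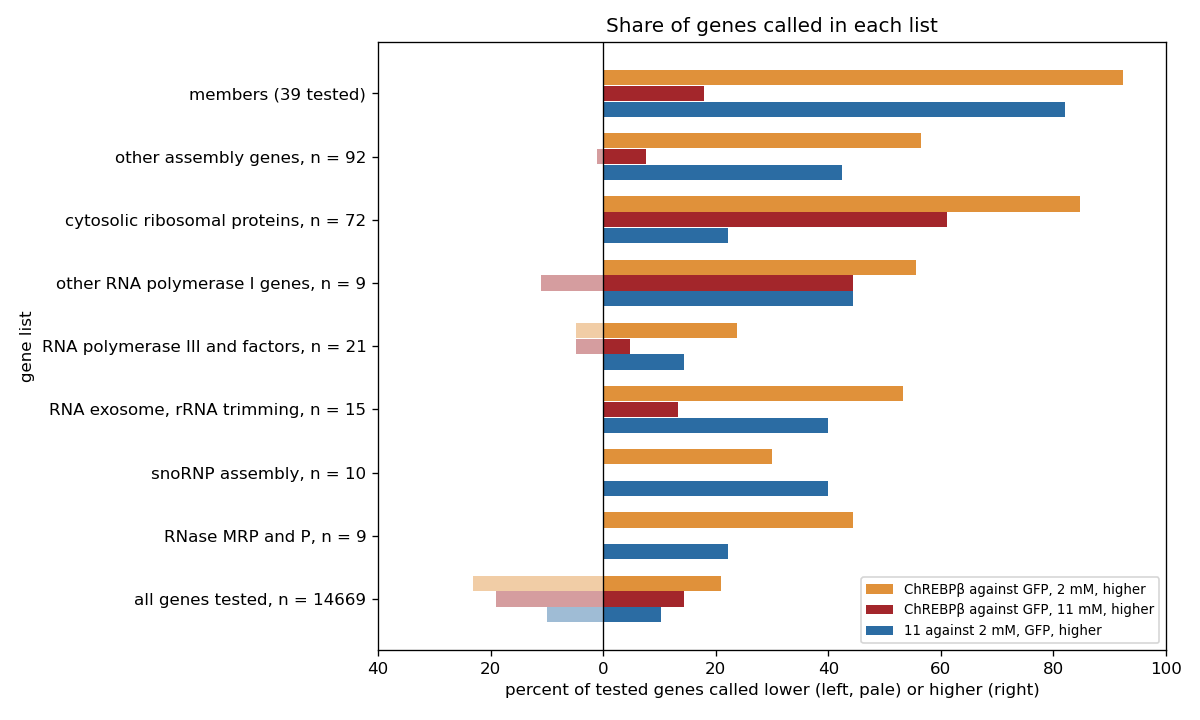
Share of the genes tested that were higher or lower with ChREBPβ at 2 and at 11 mM glucose, for the members, the further lists of the pathway and all 14669 genes. At 2 mM 36 of 39 members, 52 of 92 further assembly genes and 61 of 72 ribosomal protein genes were higher, against 21.0% of all genes.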

How the data were processed

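Bulk RNA from 12 libraries of INS-1 832/13 cells was amplified with the NuGEN Ovation RNA-Seq System V2 and sequenced. The authors deposited a table of the read count of each gene in each library, without normalization, on the Rnor_6.0 build, with the mean count of each group in 4 further columns, which were checked and not used. Their notes name edgeR, and the aligner, counting program and strand are not given in the sources used here. The 1 entry without a name was left out. R 4.3.3, edgeR 4.0.16, limma 3.58.1, DESeq2 1.42.0, Python 3.11.15 and matplotlib 3.10.9 were used. Genes passed edgeR's filterByExpr by group, counts were scaled by TMM, and a quasi-likelihood fit of the 4 groups was tested in 6 comparisons and their interaction, adjusted over all 14669 genes. The standard error is the log2 difference divided by the square root of F. The depth, 25754488 to 60531215 counts per library, limits precision for genes with few reads.

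Named genes are all 40 members, the called gene with the largest rise and the largest fall at 2 and at 11 mM in each further list (mean of at least 5 CPM), Myc and the marker genes. Results for some single genes are left out. The members and lists were chosen with earlier results of these data known. Alternatives were RLE and upper quartile factors, library totals, DESeq2, the likelihood ratio test, no filter, a minimum of 10 counts, the replicate letter as a block, fits of the compared groups alone, no minimum fold, a minimum of 2-fold, a test against 1.2-fold, libraries thinned at random to the smallest total, and each library left out in turn. Promoters came from RefSeq on GRCr8, a later build than that of the counts, and were matched by symbol, not by position.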

Additional observations from a re-analysis of the deposited data

Results flagged for a closer look

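The ChREBPβ effect differed between 11 and 2 mM glucose, by the interaction test of edgeR, in 22 of the 39 members tested and, among the other genes named singly, in Myc, 4 pathway genes and 3 markers. Counted over whole lists, it was also lower in 21 of 92 further ribosome assembly genes, 3 of 15 exosome genes, 1 of 10 snoRNP assembly genes, 1 of 9 further RNA polymerase I genes, 1 of 21 RNA polymerase III genes and 3 of 72 ribosomal protein genes, against 4.74% of all genes. For RNA polymerase III (4.76%) and ribosomal proteins (4.17%) the share is near that of all genes and is not a result about the list. The values that follow are the log2 effect at 11 mM minus that at 2 mM, which was below zero for these members, Myc and the 4 pathway genes and above zero for the 3 markers. Myc had -1.05, and among RNA polymerase I genes Polr1b had -0.65, Taf1d -0.44, Polr1a -0.42 and Polr1e -0.37. Among snoRNP proteins, chaperones and nucleolar regulators, the values were -0.56 for Ddx21, -0.44 for Mybbp1a, -0.43 for Nop56, -0.40 for Nolc1, -0.39 for Ncl, -0.38 for Npm1, -0.37 for Tcof1, -0.37 for Gar1, -0.36 for Naf1 and -0.29 for Fbl. In 40S assembly they were -0.39 for Rrp12, -0.38 for Wdr43, -0.38 for Rrp9, -0.34 for Bysl and -0.33 for Noc4l. In 60S assembly and trimming they were -0.56 for Mrto4, -0.48 for Nop2, -0.41 for Gnl3, -0.41 for Exosc6, -0.40 for Wdr12, -0.33 for Bop1 and -0.27 for Nop16. Among markers they were 0.28 for Pdx1 and 0.32 for Pcsk1 of the β-cell list and 0.98 for Pdgfra of the fibroblast list.

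Some of these passed by little. Rrp9 did not pass in the edgeR test with the replicate letter as a block (-0.38, adjusted p 0.0501). Fbl did not pass without library a of GFP 11 mM (-0.25) or library a of ChREBPβ 11 mM (-0.26), and Bysl did not without library b (-0.32) or c (-0.32) of ChREBPβ 2 mM. Nop16 and Rrp9 did not pass when any of several libraries was left out, which were library a of GFP 2 mM (-0.25 and -0.36), a and c of GFP 11 mM (-0.25 and -0.32, -0.23 and -0.35), a, b and c of ChREBPβ 2 mM (-0.26 and -0.37, -0.27 and -0.36, -0.28 and -0.40) and a of ChREBPβ 11 mM (-0.23 and -0.30), and for Rrp9 also c of GFP 2 mM (-0.38).

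Of the other named genes, Polr1e did not pass without library a or b of GFP 2 mM, a or c of GFP 11 mM, b of ChREBPβ 2 mM, or a or b of ChREBPβ 11 mM (-0.39 to -0.32). Naf1 did not without library b or c of GFP 2 mM, b or c of GFP 11 mM, c of ChREBPβ 2 mM, or a or b of ChREBPβ 11 mM (-0.38 to -0.29), and Exosc6 did not without a or b of GFP 2 mM, a or c of GFP 11 mM, b or c of ChREBPβ 2 mM, or a or c of ChREBPβ 11 mM (-0.40 to -0.36). Pdx1 fell under 1.2-fold without library c of GFP 2 mM (0.26), b of GFP 11 mM (0.25) or a of ChREBPβ 2 mM (0.26). Pcsk1 did not pass without library a or b of GFP 2 mM, a or c of GFP 11 mM, a, b or c of ChREBPβ 2 mM, or a or b of ChREBPβ 11 mM (0.27 to 0.35). Myc, Mrto4 and Pdgfra passed without each of the 12 libraries in turn.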

How the results depend on the processing

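Counts are of the 39 tested members. No call of a member turned to the opposite direction under the 25 alternatives, of which 12 left out a library. This covers calls only, and the sign of an uncalled difference could change, as for the Ltv1 interaction with upper quartile factors. With ChREBPβ at 11 mM, the 7 higher became 12 with RLE factors, 13 with DESeq2, 4 with upper quartile factors, 4 with library totals, 29 with no minimum fold, 0 with a minimum of 2-fold and 2 with a test against 1.2-fold. In the same order, 2289, 2251, 1848, 1532, 3457, 571 and 1329 of all 14669 genes were higher, in place of 2102. For ChREBPβ 2 mM against GFP 11 mM, the 5 higher became 3 with upper quartile factors, 1 with library totals, 12 with no minimum fold, 0 with a minimum of 2-fold and 0 with the test against 1.2-fold. Here 1569, 1418, 2981, 501 and 1171 of all genes were higher, in the same order, in place of 1787. The 0 lower in these comparisons, in ChREBPβ at 2 mM and in ChREBPβ 11 mM against GFP 2 mM became 1, Ltv1, with upper quartile factors, library totals or no minimum fold. The 0 higher for glucose with ChREBPβ became 6 with no minimum fold. A minimum of 2-fold left 0 of the 36 with ChREBPβ at 2 mM, of the 32 for glucose under GFP, of the 36 for ChREBPβ 11 mM against GFP 2 mM and of the 22 interactions, and the test against 1.2-fold left 21 for glucose under GFP and 3 interactions. Of all genes, the 2-fold minimum left 748, 183 and 852 higher and 97 interactions lower, in the same order. The test against 1.2-fold left 616 of all genes higher for glucose under GFP and 180 interactions lower. A change of the fold minimum acts through the rule itself, and for the scalings and DESeq2 the cause was not tested. Leaving out each library gave 36 to 36 higher with ChREBPβ at 2 mM, 7 to 13 higher and 0 to 1 lower at 11 mM, 29 to 34 higher for glucose under GFP, 0 to 0 higher with ChREBPβ, 4 to 5 higher and 0 to 1 lower for ChREBPβ 2 mM against GFP 11 mM, 36 to 36 higher and 0 to 1 lower for ChREBPβ 11 mM against GFP 2 mM, and 19 to 25 lower interactions. The 13 at 11 mM came without library c of GFP 11 mM and without library a of ChREBPβ 11 mM, and the 1 lower came without library b of GFP 11 mM or library c of ChREBPβ 11 mM. Under all 23 settings that keep the rule for a call (fits of the compared groups alone do not give the interaction), 31 of 36 members kept the call at 2 mM, 4 of 7 at 11 mM, 27 of 32 for glucose under GFP, 1 of 5 for ChREBPβ 2 mM against GFP 11 mM (Polr1b), 35 of 36 for ChREBPβ 11 mM against GFP 2 mM and 18 of 22 for the interaction. Library totals moved the median of all genes to -0.12 at 2 mM, -0.10 at 11 mM and -0.13 for ChREBPβ 11 mM against GFP 2 mM, where the members' medians were 0.365, 0.117 and 0.437. With the replicate letter as a block, 36, 7, 32, 0, 5 and 36 members were higher in the 6 comparisons. In that fit 21 interactions were lower, and the call of Rrp9 was lost. Among 18 pairs of libraries with the same letter residuals correlated from -0.11 to 0.06. Levels are relative to the bulk of genes, since no external RNA standard was used, and Nhp2 and Heatr1 had few reads.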
